A study of Arabidopsis thaliana with 9 samples.

Results

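The genes described here were listed by the authors as changed in both of their comparisons of 14-day-old Arabidopsis thaliana seedlings, in which plants overexpressing SRT1 (OX) and plants silenced for SRT1 by RNA interference (RNAi) were each set against wild type. There were 569 such genes, of 2507 in any of the 4 deposited lists. The OX lists held 1965 genes and the RNAi lists 1126. Genes were matched by their identifier, 14 genes whose locus entry holds a space were left out, and SRT1 itself (AT5G55760) was left out. OX was the single line OX-SRT1-1, RNAi the single line RNAi-1 and wild type the Col accession, with line names as in the growth protocol, while the tables head their columns ox5, r5 and col. Each group had 3 libraries of seedling RNA whose tissue is labelled leaf, stem and root, grown under normal conditions on an MS-based medium. Because each transgene was represented by 1 line, an effect of the transgene and an effect of that line cannot be told apart, and the promoters that drove the transgenes are not given in the sources used here. Transcripts typical of leaf and of root were both listed: the antenna protein gene LHCB1.2 stood at 13505 FPKM and the endodermal CASP1 at 16.6 FPKM in the wild-type column of the OX tables.

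The tables give expression in FPKM, a read count scaled to transcript length and library size, as a single value for each group and none per library. No spread between replicates, depth or test could therefore be computed for OX against RNAi, and every difference below is a description of a pair of values. The FPKM values are the authors' own. The second column of each table is labelled wild type in the OX tables, and over the 569 genes its log2 value in the OX tables exceeded that in the RNAi tables by 0.02 to 0.15, with a median of 0.08. It is called the shared column here, and printed as the OX tables give it. The first column of the RNAi tables is called the RNAi column, and its printed label is not the same in both lists. It is labelled RNAi for 225 of the genes and wild type for 344. The 344 all come from the list whose title says higher in RNAi, and the 225 from the list whose title says lower in RNAi. The value of the shared column was the same, within that range, for the 344 as for the 225. The labels, the titles and SRT1 go against each other. In OX, SRT1 stood at 6.05 FPKM, against 1.75 FPKM in wild type, a 3.46-fold difference. Its row in the RNAi table gave 2.37 FPKM under the label RNAi, against 0.419 FPKM under the label wild type. This is 5.67-fold higher, whereas silencing is meant to lower it. The 0.419 FPKM also lies far from the 1.75 FPKM of wild type in the OX table. Unlike the 569 genes, SRT1 thus has no matching shared value. This row does not show whether SRT1 was silenced. Read by their printed labels, the 344 genes would compare OX with wild type and not with RNAi. Their second column would then be RNAi, although its values match the wild-type column of the OX tables within the range above. What this reading changes is given with the alternatives at the end.

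SRT1 is a sirtuin, a nuclear enzyme that removes acetyl groups from histones and other proteins using NAD+. Histone acetylation goes with open, transcribed chromatin and its removal with closed chromatin. Setting the line made to overexpress the enzyme beside the line made to silence it shows which genes lie on the same side of the shared column in both and which do not. Several of the genes below belong to programmes that plants keep apart in time and space. Late embryogenesis abundant (LEA) proteins and oleosins belong to the maturing seed, extensins are hydroxyproline-rich proteins of the cell wall with many root hair members, and the small lipid transfer proteins of the AZI1 group take part in pathogen defence. Chloroplasts and mitochondria transcribe their own small genomes, the chloroplast with a bacterial-type polymerase encoded by its rpo genes and a nuclear-encoded phage-type polymerase.

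For each gene, the OX value and the RNAi value were each divided by the shared value of their own row, and the log2 ratio of these quotients is called the log2 ratio of OX over RNAi, negative where OX is lower. Of the 569 genes, 145 differed 2-fold or more (25.5%), of which 120 were lower in OX (21.1%) and 25 were higher (4.39%). The other 424 differed less than 2-fold. In 558 of the 569 genes the OX and RNAi values lay on the same side of the shared column: 344 were below it in both and 214 above it in both. The remaining 11 lay on opposite sides (1.93%), and all 11 were below the shared column in OX and above it in RNAi. The list titles say otherwise: by title the 11 are lower in both lines. By title the 344 are lower in OX and higher in RNAi, and the 214 higher in OX and lower in RNAi. Since the lists hold only genes at least 2-fold from wild type, an opposite-side gene differs at least 4-fold by construction. The median log2 ratio over all 569 genes was 0.03, so the middle of the distribution sat near equality while its lower tail was the longer one, reaching -6.15 against 2.23 at the upper end.

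**Figure D1:**
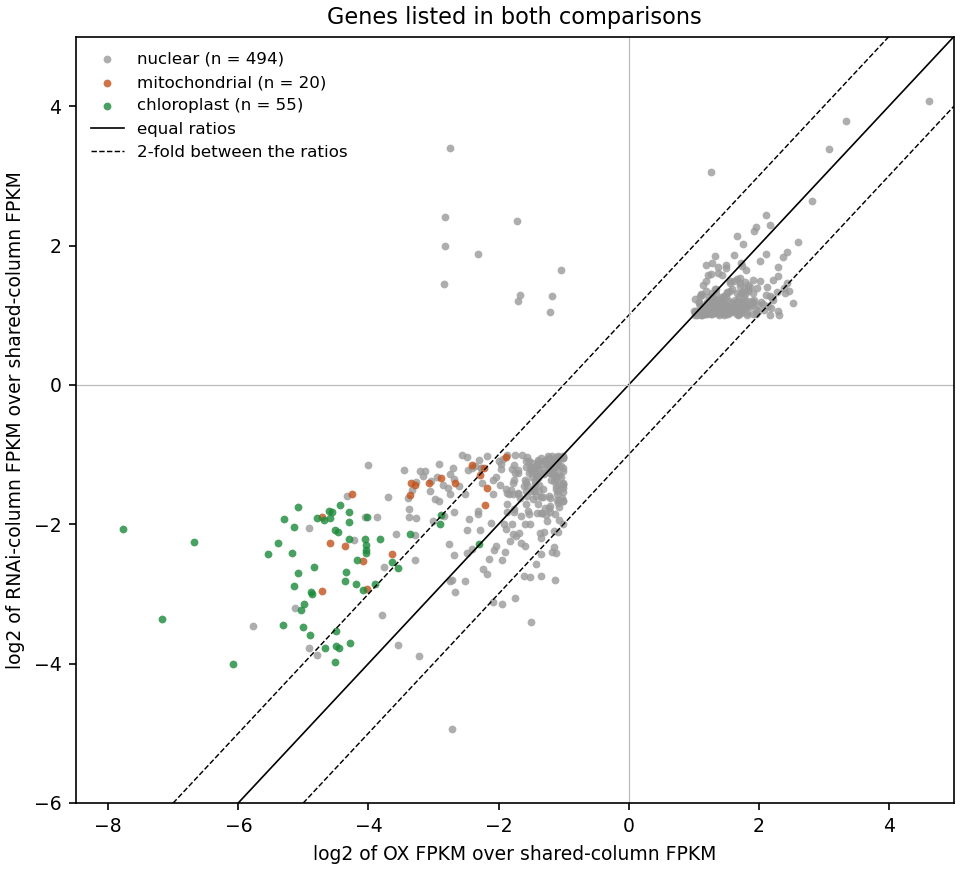
Each point is a gene, coloured by genome. One axis gives the log2 ratio of OX to the shared column and the other that of the RNAi column to the shared column. The lines mark equality and the 2-fold limits. Chloroplast and mitochondrial genes lie on the side of the line of equality where OX is lower. The 11 opposite-side genes stand alone in the quadrant that is low in OX and high in RNAi.

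Where a gene is encoded separated these differences. All 55 chloroplast genes had a log2 ratio below 0 and 46 were at least 2-fold lower in OX (83.6%), with a median of -1.86. All 20 mitochondrial genes were below 0 and 16 were at least 2-fold lower (80%), with a median of -1.55. Of the 494 nuclear genes, 83 differed 2-fold or more (16.8%), 58 of them lower in OX (11.7%) and 25 higher (5.06%), with a median of 0.12. Of the nuclear genes, 13 on chromosome 2 are copies of mitochondrial sequence, matching the mitochondrial genome over at least 95% of their length. All 13 were below 0, 11 were at least 2-fold lower in OX and the median was -1.57, a level next to that of the mitochondrial genes themselves. Without them 481 nuclear genes remained, of which 72 differed (15%), 47 lower in OX (9.77%) and 25 higher (5.2%). Differences between OX and RNAi were thus seen in most organelle genes and in a minority of nuclear ones.

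The largest nuclear differences belonged to the opposite-side genes. These 11 genes ranged from 0.0693 to 4.75 FPKM in OX, from 1.29 to 24.8 FPKM in RNAi and from 0.491 to 10.8 FPKM in the shared column. Their median log2 ratio of OX over RNAi was -4.07, which is 16.8-fold lower in OX. All 11 were at 1 FPKM or more in the RNAi column, and 9 of the 11 were under 1 FPKM in OX. In RNA from whole seedlings, fewer cells of a type and less RNA per cell cannot be told apart, and this holds for every gene below.

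Of these 11 genes, 3 have products best known from seeds or from drying tissue. AT1G04560, an AWPM-19-like membrane protein of a family first described in abscisic acid-treated wheat, had 0.113 FPKM in OX, 3.97 FPKM in RNAi and 0.795 FPKM in the shared column, 37.3-fold lower in OX than in RNAi after division. AT3G15670, a LEA protein of the kind that accumulates as seeds dry, had 0.0704 FPKM in OX, 1.29 FPKM in RNAi and 0.502 FPKM in the shared column, 19.5-fold lower. AT3G01570, an oleosin that coats the oil bodies of seeds, had 0.212 FPKM in OX, 1.53 FPKM in RNAi and 0.672 FPKM in the shared column, 7.74-fold lower. The RNAi column was the only one above 1 FPKM in these 3 genes. The same held for AT3G54940, a papain-type cysteine protease, a class that includes enzymes breaking down stored protein. It had 0.0693 FPKM in OX, 1.86 FPKM in RNAi and 0.491 FPKM in the shared column, 28.3-fold lower. The genes were grouped by product after their values were seen. No member came from the list of seed maturation genes drawn up for this work, which names storage proteins and their regulators.

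The other 7 had varied products. AT1G68250 (chromosome 1, 25579373 to 25580194), an uncharacterised protein, had the largest difference of all 569 genes, with 0.261 FPKM in OX, 17.4 FPKM in RNAi and 1.76 FPKM in the shared column, 70.9-fold lower in OX. AT1G54870, a dehydrogenase-like protein with a Rossmann fold that binds NAD(P), had 0.153 FPKM in OX, 2.63 FPKM in RNAi and 0.759 FPKM in the shared column, 18.3-fold lower. AT3G29644, a long non-coding RNA, had 0.439 FPKM in OX, 6.96 FPKM in RNAi and 1.45 FPKM in the shared column, 16.8-fold lower. These 3 were low in OX and clearly highest in the RNAi column. PISTILLATA (PI, AT5G20240), the MADS-box factor that specifies petals and stamens, had 3.21 FPKM in OX, 22.6 FPKM in RNAi and 10.5 FPKM in the shared column, 7.51-fold lower. AT3G59930, a defensin-like secreted peptide, had 4.75 FPKM in OX, 24.8 FPKM in RNAi and 10.8 FPKM in the shared column, 5.50-fold lower. PI and AT3G59930 were the only opposite-side genes above 1 FPKM in OX. AT1G78720, which encodes a SecY protein translocation subunit, stood 6.48-fold lower, at 0.321 FPKM in OX, 1.97 FPKM in RNAi and 0.662 FPKM in the shared column. SADHU3-2 (AT3G42658), a non-coding retrotransposon of the Sadhu family, stood 4.79-fold lower, at 0.422 FPKM in OX, 1.90 FPKM in RNAi and 0.975 FPKM in the shared column. In the authors' deposited table the q-values of the 11 genes ranged from 0.00015 to 0.0417 for OX against the shared column, with 9 of them over 0.005. For RNAi against the shared column they ranged from 0.000199 to 0.0117 in the authors' deposited table.

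**Figure D2:**
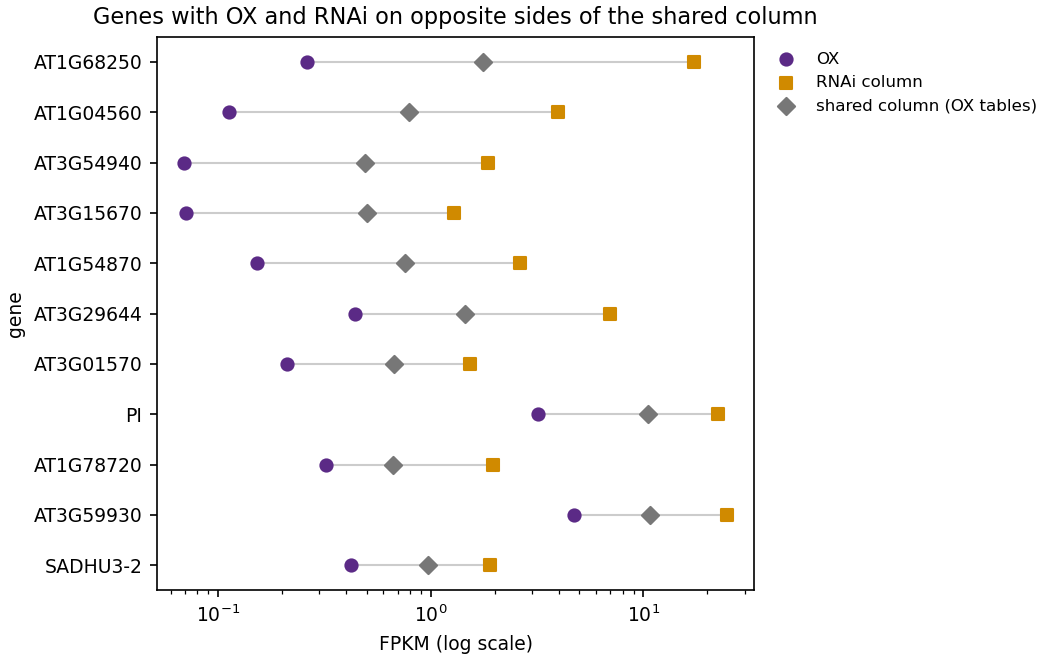
FPKM of the 11 opposite-side genes on a log axis, one row per gene, with a marker each for OX, the RNAi column and the shared column. In every row OX lies left of the shared column and RNAi right of it, and the gap between OX and RNAi is widest for AT1G68250 at the top.

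Promoter sequence is shown for these genes because they lie on the same sides of the shared column and because a pair of elements is known from seed and abscisic acid-responsive genes. The 250 bases before the annotated start were taken from RefSeq, build TAIR10.1, for the 9 protein-coding genes among the 11. They were searched on both strands for the RY element CATGCA, bound by the B3-domain regulators of seed maturation, and for ACGTGNC, the core of the abscisic acid-responsive element (ABRE) bound by bZIP factors of the ABI5 type. The 6 promoters with a match are printed 5′ to 3′ on the strand of the gene, with the matching letters in capitals. AT3G01570 has both elements, AT3G54940 and PI the RY element, and the other 3 the ABRE. The RY and ABRE letters do not overlap in any line, while in AT1G04560 an ABRE on one strand overlaps an ABRE on the other.
AT1G04560, chr1:1244697-1244946, plus strand: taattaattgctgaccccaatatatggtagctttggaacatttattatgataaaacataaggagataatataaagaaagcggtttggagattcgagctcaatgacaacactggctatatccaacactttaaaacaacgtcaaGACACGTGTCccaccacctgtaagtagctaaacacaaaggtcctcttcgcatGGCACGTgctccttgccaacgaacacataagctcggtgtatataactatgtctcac
AT3G54940, chr3:20354101-20354350, plus strand: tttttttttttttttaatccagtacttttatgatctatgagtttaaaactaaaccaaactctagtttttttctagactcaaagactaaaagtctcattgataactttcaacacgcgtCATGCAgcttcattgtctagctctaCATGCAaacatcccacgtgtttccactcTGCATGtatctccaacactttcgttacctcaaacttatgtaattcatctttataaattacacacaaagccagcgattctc
AT3G15670, chr3:5310989-5311238, minus strand: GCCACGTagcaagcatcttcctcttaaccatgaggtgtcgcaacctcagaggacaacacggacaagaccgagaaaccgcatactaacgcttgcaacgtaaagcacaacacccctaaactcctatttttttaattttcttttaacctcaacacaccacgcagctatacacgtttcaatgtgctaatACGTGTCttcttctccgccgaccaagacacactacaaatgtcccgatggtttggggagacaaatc
AT3G01570, chr3:222828-223077, minus strand: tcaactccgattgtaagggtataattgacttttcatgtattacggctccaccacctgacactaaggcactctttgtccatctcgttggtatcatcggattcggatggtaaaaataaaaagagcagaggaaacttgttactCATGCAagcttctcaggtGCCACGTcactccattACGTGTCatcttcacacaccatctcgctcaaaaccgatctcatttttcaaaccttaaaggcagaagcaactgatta
AT1G54870, chr1:20458702-20458951, plus strand: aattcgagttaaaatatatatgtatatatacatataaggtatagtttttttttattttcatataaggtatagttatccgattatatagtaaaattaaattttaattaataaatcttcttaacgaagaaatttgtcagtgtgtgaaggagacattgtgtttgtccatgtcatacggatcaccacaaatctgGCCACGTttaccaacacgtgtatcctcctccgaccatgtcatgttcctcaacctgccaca
PI, chr5:6828654-6828903, plus strand: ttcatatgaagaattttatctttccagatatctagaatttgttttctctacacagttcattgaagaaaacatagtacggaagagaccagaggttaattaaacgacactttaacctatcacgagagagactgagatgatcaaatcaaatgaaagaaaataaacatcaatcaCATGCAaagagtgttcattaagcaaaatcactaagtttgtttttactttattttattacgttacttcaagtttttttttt

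Over the 9 promoters, 3 held an RY element, 4 held an ABRE, 1 held both and 3 held neither. Among 27443 promoters of the same length across the annotation, 8.43% held the RY letters and 8.57% the ABRE letters. AT1G68250, AT1G78720 and AT3G59930 held neither motif in this window. The window of AT3G01570 overlaps a neighbouring gene. A match of letters is a description and does not show that a factor is bound.

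One further gene of the LEA class differed 2-fold or more without changing sides. LEA7 (AT1G52690) had 0.545 FPKM in OX, 1.76 FPKM in RNAi and 0.227 FPKM in the shared column. It was therefore above the shared column in both, 2.398-fold in OX and 8.31-fold in RNAi, and 3.47-fold lower in OX than in RNAi. It was the only gene above the shared column in both lines that was 2-fold or more lower in OX. AT3G02480, another LEA protein, had 12.7 FPKM in OX, 16.7 FPKM in RNAi and 5.24 FPKM in the shared column, a log2 ratio of OX over RNAi of -0.47. AT4G05220, of the LEA hydroxyproline-rich family, was below the shared column in both lines and stood at 0.18. Of the 5 LEA and oleosin members by product, 3 were 2-fold lower in OX, beside 9.77% over the 481 nuclear genes. The group was formed after the values were seen, and AT3G15670 and AT3G01570 among the 3 are opposite-side genes already given above.

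In the chloroplast genome the level in OX lay below that in RNAi across almost all functions, with the largest median differences between them in the photosystems. In the median the 55 chloroplast genes were 22.7-fold below the shared column in OX and 5.35-fold below it in RNAi, so both lines were low and OX was 3.64-fold lower than RNAi. All 7 photosystem II genes were 2-fold or more lower in OX, beside 83.6% of the 55 chloroplast genes, with a median log2 ratio of -2.80. PSBZ (chloroplast genome, 35751 to 35939), a small core subunit, had the largest organelle difference, with 7.82 FPKM in OX, 385 FPKM in RNAi and 1713 FPKM in the shared column. PSBA, which encodes the D1 reaction centre protein, had 72.9 FPKM in OX, 711 FPKM in RNAi and 2858 FPKM in the shared column, 10.3-fold lower in OX. PSBH, a phosphoprotein of the same complex, had 3.72 FPKM in OX, 74.7 FPKM in RNAi and 381 FPKM in the shared column, 21.3-fold lower. The order was the same in the 3 genes: OX lowest, RNAi between, the shared column highest.

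The other photosynthetic complexes followed the same order at smaller differences. Their counts stand beside 83.6% 2-fold lower over all 55 chloroplast genes, and in groups this small they say little about a single complex. All 5 genes of photosystem I and its assembly were lower, with log2 ratios of OX over RNAi between -3.12 for the assembly factor YCF3 and -2.26 for the subunit PSAC. All 3 cytochrome b6f genes were lower, with a median of -2.68. RBCL, the large subunit of the carbon-fixing enzyme Rubisco, had 23.2 FPKM in OX, 187 FPKM in RNAi and 825 FPKM in the shared column, 8.61-fold lower in OX. Of the 6 ATP synthase genes 5 were 2-fold lower, with ATPH at -3.12 and ATPB, which missed the limit, at -0.90. ATPB had 12.5 FPKM in OX, 22.0 FPKM in RNAi and 93.3 FPKM in the shared column. All 10 genes of the NDH complex, which carries cyclic electron flow, were lower, between -2.33 for NDHD and -1.05 for NDHC. By function, then, the median ran at -2.80 in photosystem II and at -1.74 in the NDH complex.

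Genes of the chloroplast's own expression machinery differed least between OX and RNAi in the median, though single members differed widely. Against the shared column, the ribosomal protein genes were 29.7-fold lower in OX and 11.1-fold lower in RNAi in the median. For photosystem II these medians were 36.2-fold and 3.83-fold, and for the RNA polymerase 14.0-fold and 6.89-fold. Of 13 ribosomal protein genes 9 were 2-fold lower in OX, beside 83.6% of the 55 chloroplast genes, with a median of -1.53. RPS15 had 0.699 FPKM in OX, 9.31 FPKM in RNAi and 101 FPKM in the shared column, 14.0-fold lower in OX. RPS14 had 13.0 FPKM in OX, 123 FPKM in RNAi and 441 FPKM in the shared column, a log2 ratio of -3.32. RPL16 had 9.64 FPKM in OX, 13.1 FPKM in RNAi and 219 FPKM in the shared column, a log2 ratio of only -0.52. Of the 4 subunits of the chloroplast-encoded RNA polymerase only RPOC2 passed the limit, at -1.14, with RPOA at -0.97 and RPOC1 at -0.91. RPOB had 4.83 FPKM in OX, 4.604 FPKM in RNAi and 23.8 FPKM in the shared column. It was the chloroplast gene closest to equality, with a log2 ratio of -0.01, and was about as far below the shared column in OX as in RNAi. Among the remaining genes, CCSA for cytochrome maturation, the intron maturase MATK, ACCD for fatty acid synthesis, the envelope protein CEMA and the protease subunit CLPP1 were all 2-fold lower. YCF1.2, a gene for a subunit of the import machinery, stood at -0.58.

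Locus length ran alongside these values. The 7 chloroplast genes with a locus of 300 bases or less had a median log2 ratio of -3.12 and were all 2-fold lower in OX. The 48 longer ones had a median of -1.78, with 39 of them 2-fold lower. The short genes include PSBZ, PSBH, ATPH and RPS15, and the part of length in these differences was not tested. Of the chloroplast genes, 6 share their listed locus with a neighbour, among them PSBC and PSBD, which were at -2.80 and -2.75. Each gene has FPKM values of its own, and how far such neighbours are separate measurements was not tested.

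**Figure D3:**
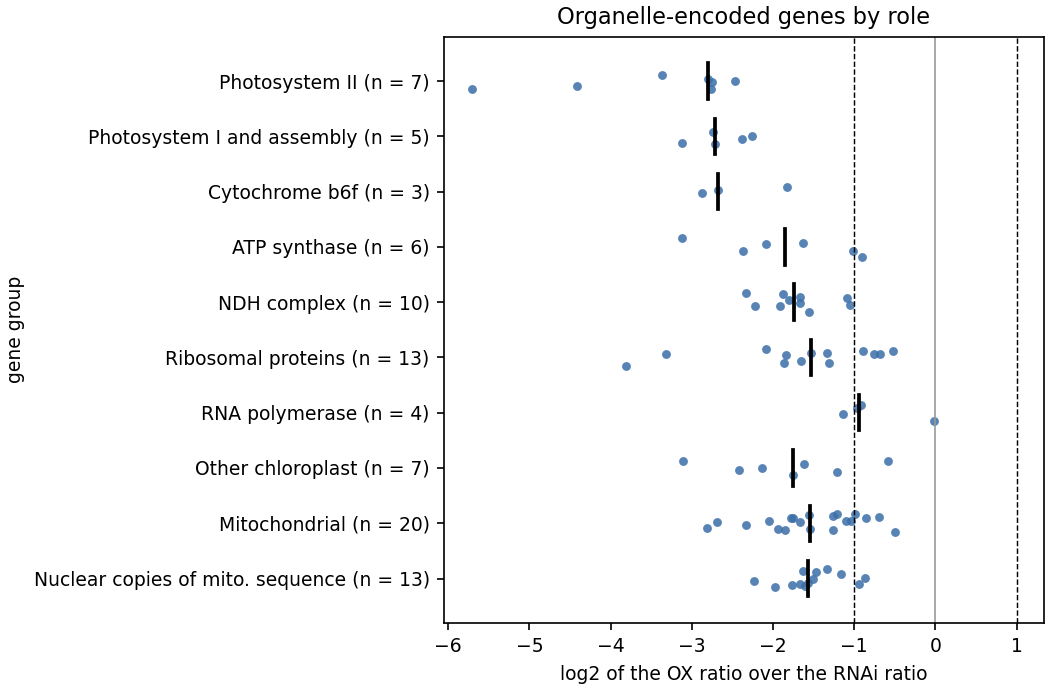
The log2 ratio of OX over RNAi for each organelle gene, grouped by function down the page; each point is a gene and dashed lines mark 2-fold. No point lies right of 0, photosystem II reaches furthest left with PSBZ at -5.71, and the RNA polymerase genes sit nearest to 0 with RPOB at -0.01.

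The mitochondrial genes were 9.95-fold below the shared column in OX and 2.87-fold below it in RNAi in the median. All 4 complex I segments (NAD7, NAD9 and the NAD5A and NAD5C parts of NAD5) and all 3 cytochrome oxidase genes were 2-fold lower in OX. Their medians were -1.91 and -1.56, and 80% of all 20 mitochondrial genes were 2-fold lower. The ribosomal RNAs had the lowest group median, -2.57. RRN26 had 20.1 FPKM in OX, 134 FPKM in RNAi and 527 FPKM in the shared column, 7.03-fold lower in OX, and RRN18 was 5.03-fold lower. RPL16 of the mitochondrion was at -1.21 and ATP6-1 at -0.69, inside the 2-fold limit. The remaining 9 loci, which are MATR and open reading frames, were all below 0 and included 6 that were 2-fold lower, with a range of -1.94 to -0.50. Among the 13 nuclear copies, AT2G07725 was at -2.23, COX3 (AT2G07687) at -1.97 and MT-CYB (AT2G07727) at -1.64. COX3 of the mitochondrial genome itself was at -1.56. How reads were divided between a mitochondrial gene and its nuclear copy is not given in the sources used here, so the values of these 13 copies are uncertain.

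Nuclear genes that were low in both lines differed little in the middle and widely at the edges. The 256 such genes, without the mitochondrial copies, were 2.83-fold below the shared column in OX and 2.83-fold below it in RNAi in the median, and their median log2 ratio of OX over RNAi was -0.04. Of the 256, 35 were 2-fold or more lower in OX and 15 higher, beside 9.77% lower and 5.2% higher over the 481 nuclear genes. The 35 were deep in OX, 9.24-fold below the shared column in the median against 2.88-fold in RNAi.

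The lower genes had varied products, and those given here were partly chosen after their values were seen. ACS7 (AT4G26200), an ACC synthase that makes the precursor of ethylene, had 0.271 FPKM in OX, 1.87 FPKM in RNAi and 4.36 FPKM in the shared column, 7.26-fold lower in OX. ACS2, the other ethylene biosynthesis gene among the members, was at -0.90 and inside the 2-fold limit. AZI1 (AT4G12470), a lipid transfer-like protein needed for azelaic acid-primed systemic immunity, had 21.6 FPKM in OX, 91.4 FPKM in RNAi and 359 FPKM in the shared column, 4.47-fold lower in OX. The wall protein EXT4 (AT1G76930) had 75.2 FPKM in OX, 253 FPKM in RNAi and 675 FPKM in the shared column, 3.61-fold lower. These 3 genes were lowest in OX and had an RNAi value between OX and the shared column. The peroxidase PER71 had 24.96 FPKM in OX, 63.8 FPKM in RNAi and 298 FPKM in the shared column, 2.70-fold lower. The plant defensin PDF1.4 had 8.71 FPKM in OX, 30.9 FPKM in RNAi and 76.0 FPKM in the shared column, 3.73-fold lower. SIRK (AT2G19190, also known as FRK1), a receptor kinase induced by bacterial flagellin, was under 1 FPKM in both lines, at 0.0743 FPKM in OX, 0.156 FPKM in RNAi and 2.25 FPKM in the shared column. Also 2-fold lower were the MLO-family protein MLO12 at -1.05, the cationic amino acid transporter CAT1 (AT4G21120) at -1.25 and YSL7, of the yellow stripe-like metal carriers, at -1.21.

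Several lower genes to which the annotation gives no characterised product were abundant in the shared column. The non-coding RNA AT1G15405 had 23.0 FPKM in OX, 144 FPKM in RNAi and 463 FPKM in the shared column, 6.66-fold lower in OX. AT5G44585 had 11.8 FPKM in OX, 31.0 FPKM in RNAi and 123 FPKM in the shared column, 2.79-fold lower. Its neighbour on chromosome 5, AT5G44575, had 1.97 FPKM in OX, 7.28 FPKM in RNAi and 18.2 FPKM in the shared column, 3.94-fold lower. AT2G16586 had 21.1 FPKM in OX, 44.4 FPKM in RNAi and 129 FPKM in the shared column, 2.23-fold lower. In all 4 the RNAi column lay between OX and the shared column.

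A cluster of 4 related lipid transfer-like genes on chromosome 4, within positions 7401109 to 7414927, held genes that differed in either direction. AZI1 was at -2.16, and its neighbour EARLI1, a close relative, had 18.4 FPKM in OX, 39.4 FPKM in RNAi and 124 FPKM in the shared column, a log2 ratio of -1.18. Next in the row, AT4G12490 had 3.34 FPKM in OX, 4.43 FPKM in RNAi and 46.1 FPKM in the shared column, at -0.48. AT4G12500, the last, had 2.48 FPKM in OX, 0.502 FPKM in RNAi and 16.3 FPKM in the shared column. Its log2 ratio of 2.23, 4.68-fold higher in OX, was the highest of all 569 genes. All 4 were below the shared column in both lines, and along the cluster the line with the lower value switched. Outside the cluster AT4G22470, another lipid transfer protein, had 0.783 FPKM in OX, 5.22 FPKM in RNAi and 23.6 FPKM in the shared column, 7.23-fold lower in OX. By product, 15 members were lipid transfer or related proteins, 3 of them 2-fold lower in OX and 1 higher, a group formed after the values were seen, beside 9.77% lower and 5.2% higher over the 481 nuclear genes.

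The extensin list had the highest median of the nuclear lists with 3 or more members. Of 9 extensins and proline-rich wall proteins, all were below the shared column in both lines, 4 were 2-fold or more higher in OX and 1, EXT4, was 2-fold lower, beside 5.2% higher and 9.77% lower over the 481 nuclear genes. Their median log2 ratio was 0.99, against 0.14 over the 481. With 0.1 FPKM added to every value only EXT13 was still 2-fold higher. With the RNAi value taken by its printed label all 9 were below 0, which holds by construction for genes below the shared column in both lines. EXT13 had 1.30 FPKM in OX, 0.516 FPKM in RNAi and 3.73 FPKM in the shared column, 2.35-fold higher in OX. EXT6 had 0.955 FPKM in OX, 0.430 FPKM in RNAi and 4.06 FPKM in the shared column, 2.03-fold higher. LRX1, a leucine-rich repeat extensin that shapes root hair walls, had 0.606 FPKM in OX, 0.244 FPKM in RNAi and 1.36 FPKM in the shared column, 2.34-fold higher. In these genes the RNAi column was the lowest of the 3. EXT11, which the annotation calls a pseudogene, was 2.48-fold higher at 0.476 FPKM in OX, 0.177 FPKM in RNAi and 1.60 FPKM in the shared column. PRP3, a root hair proline-rich protein, was at 0.99, just short of 2-fold, EXT12 at 0.73, EXT10 at 0.50 and PRP4 at 0.05. PRP4 and EXT4, which stood apart from the others, are the abundant ones, and PRP4 had 317 FPKM in OX, 286 FPKM in RNAi and 865 FPKM in the shared column.

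Further wall-related members were few. XTH12, a xyloglucan-remodelling enzyme, was 3.74-fold higher in OX at 0.306 FPKM in OX, 0.0771 FPKM in RNAi and 0.868 FPKM in the shared column, and the median of 3 XTH genes was 0.04. FLA10, a fasciclin-like arabinogalactan protein, had 1.02 FPKM in OX, 0.397 FPKM in RNAi and 2.21 FPKM in the shared column, 2.46-fold higher. The related FLA9 and AGP31 were at -0.02 and 0.38. Among 6 endodermis and root hair genes LRX1 alone was 2-fold higher, with the Casparian strip proteins CASP1 at -0.27 and CASP5 at 0.33 and the root hair expansin EXPA7 at 0.29.

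The other higher genes below the shared column had mixed products. CYP71A12, a cytochrome P450 that converts indole compounds for camalexin and related defence metabolites, had 0.743 FPKM in OX, 0.221 FPKM in RNAi and 1.62 FPKM in the shared column, 3.19-fold higher in OX. GRXC7 (AT3G02000, also called ROXY1), a glutaredoxin of petal development, had 1.38 FPKM in OX, 0.563 FPKM in RNAi and 3.03 FPKM in the shared column, 2.28-fold higher. SADHU5-1, a second Sadhu retrotransposon, was 2.65-fold higher in OX, where SADHU3-2 was 4.79-fold lower. It and AT3G54730 have a close copy elsewhere in the genome, as do 20 members in all. Of these 20, 3 were 2-fold lower and 2 higher, beside 11.7% lower and 5.06% higher over the 494 nuclear genes. Of the 25 genes higher in OX, 11 were under 1 FPKM in OX and RNAi alike, and so were 9 of the 47 lower ones. With 1 FPKM added to every value, 2 genes in all 569 were still 2-fold higher in OX, against 76 lower. With 0.1 FPKM added, 14 were higher, and LRX1, EXT11 and EXT6 missed the limit at 0.96, 0.94 and 0.87.

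**Figure D4:**
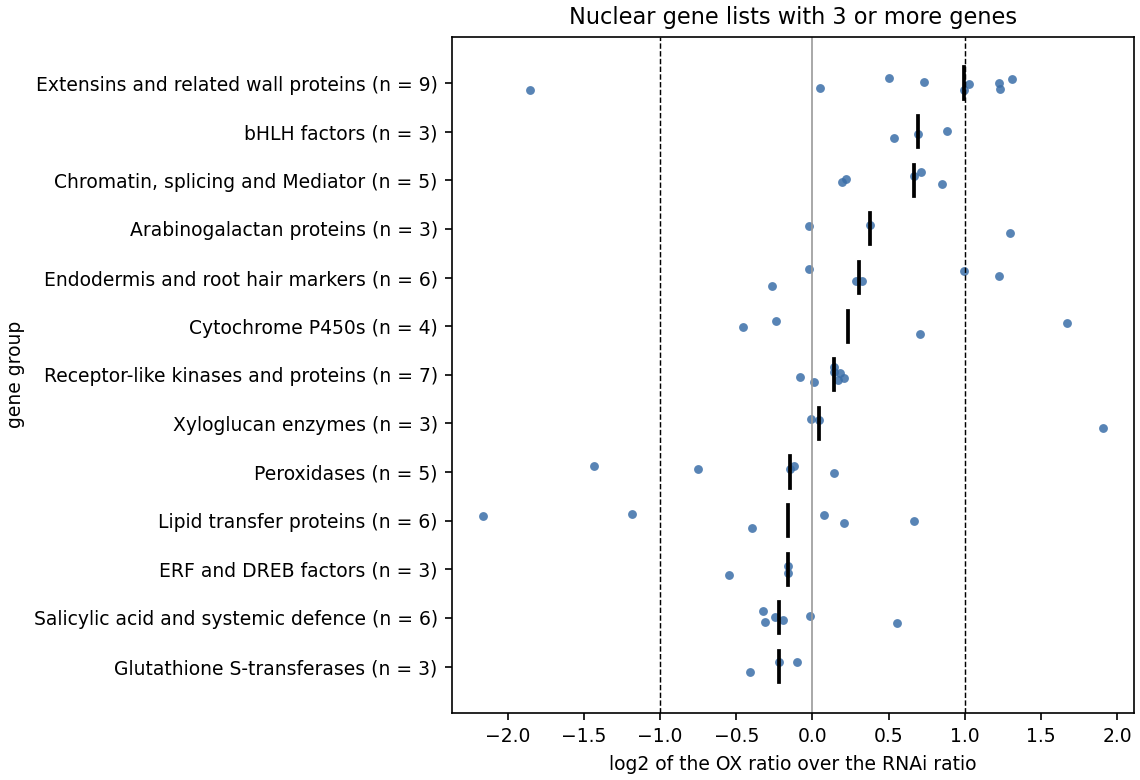
The log2 ratio of OX over RNAi for the nuclear members of each gene list with 3 or more such members; each point is a gene, a bar marks the list's median and dashed lines mark 2-fold. The extensin and proline-rich list has the highest median, 0.99, with EXT4 apart at -1.85, while AZI1 at -2.16 is the lowest point of all the lists shown.

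Genes that were high in both lines leaned towards OX. The 214 such genes were 2.96-fold above the shared column in OX and 2.26-fold above it in RNAi in the median, and their median log2 ratio was 0.30. Of the 214, 176 had a log2 ratio above 0, 10 were 2-fold or more higher in OX and LEA7 alone was lower. Over the 481 nuclear genes, which include these, 296 were above 0 and the median was 0.14, with 5.2% 2-fold higher and 9.77% lower. The lean thus lay in small differences, and the count of 2-fold higher genes was near the share over all. The TRAF-like protein AT1G65370 had 16.4 FPKM in OX, 5.999 FPKM in RNAi and 2.84 FPKM in the shared column, 2.56-fold higher in OX. XI-J, a class XI myosin that moves organelles along actin, had 1.25 FPKM in OX, 0.484 FPKM in RNAi and 0.253 FPKM in the shared column, 2.46-fold higher. SNRNP48, a protein of the U11/U12 spliceosome that removes minor introns, had 3.79 FPKM in OX, 1.79 FPKM in RNAi and 0.892 FPKM in the shared column, 2.01-fold higher. In all 3 OX was the highest and the RNAi column stood between it and the shared column. Centred on the nuclear median of 0.12, SNRNP48 stood at 0.88 and missed the limit, and 16 of the 25 genes higher in OX reached it. Others of the 10 were the Nudix hydrolase NUDT12 at 1.01, TRM9 at 1.08 and AT1G10320 at 1.17. Of 5 genes listed for chromatin, splicing and Mediator, none reached 2-fold. The 4 that were high in both lines were SR34B at 0.71, MED19B at 0.66, MED19A at 0.22 and MED9 at 0.19. MED37D, at 0.85, is an Hsp70 family protein by product and was below the shared column in both lines. The genes high in both lines had longer loci than those low in both, with medians of 2774 and 1359 base pairs and of 7 and 2 exons.

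The remaining lists held few genes past the limit, which 15% of the 481 nuclear genes reached, so a count of 0 or 1 in lists this short says little. None of 6 salicylic acid defence genes differed 2-fold, with a median of -0.22 and a range that ran between -0.32 for AIG1 and 0.56 for PCC1. PCC1, which is far above the shared column in both lines, had 10.7 FPKM in OX, 6.86 FPKM in RNAi and 0.434 FPKM in the shared column. BG2, the pathogenesis-related glucanase, was at -0.31 and the regulator CBP60G at -0.02. No member of the glutathione transferases (GSTF6 at -0.41, GSTF7 at -0.22 and GSTF8 at -0.10), of the 3 ERF/DREB factors, the 3 bHLH factors or the 7 receptor-like proteins reached 2-fold. Of 5 peroxidases PER71 alone did, with PER69 next at -0.75. The clock genes APRR3 and APRR9 were at 0.30 and 0.37, the flowering repressors MAF3 and AGL31 at 0.50 and 0.85, and the jasmonate markers VSP2 and CORI3 at -0.55 and -0.29. Of the 39 gene lists 34 held a member. Of 76 nuclear members in any list, 5 were 2-fold lower in OX and 7 higher, beside 9.77% lower and 5.2% higher over the 481 nuclear genes.

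Values nearest to equality and to the 2-fold limit mark the ends of the scale. Among genes of at least 10 FPKM in the shared column, AtRLP51 had 10.7 FPKM in OX, 9.87 FPKM in RNAi and 21.5 FPKM in the shared column, a log2 ratio of 0.01. The xyloglucan enzyme XTH32 had 6.67 FPKM in OX, 6.27 FPKM in RNAi and 17.98 FPKM in the shared column, at -0.01. LHCB1.2, a nuclear-encoded antenna protein of photosystem II, had 5999 FPKM in OX, 5644 FPKM in RNAi and 13505 FPKM in the shared column, at 0.03, whereas the chloroplast-encoded photosystem II genes were all at -2.47 or lower. The last gene to reach the limit on the high side was SNRNP48 at 1.01, and the first to miss it was AT1G53250 at 0.999. On the low side ATPE reached it at -1.01 and the mitochondrial ORF291 missed it at -0.99.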

How the data were processed

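RNA libraries of 9 seedling samples, 3 per group, were sequenced. Per the submitters' processing notes the tools were TopHat2 2.1.1, Cufflinks 2.2.1 and Cuffdiff, with build TAIR10. The authors deposited 4 lists of changed genes, each with 1 FPKM value per group, a log2 fold change, a p-value and a q-value, per the file headers. Depth is unknown, because FPKM values without counts do not give it. The members and gene lists were chosen with earlier results of these data known. Each first-column FPKM was divided by the second-column FPKM of its own row, with no pseudocount, and OX and RNAi quotients were compared on the log2 scale with a limit of 2-fold. With 1 value per group, no test was run. Picked for naming were all opposite-side genes and the 10 most extreme genes per direction and genome type with at least 1 FPKM. The extremes and middle of each list with 3 or more members, and the genes nearest the limit and nearest equality, were also picked. Not every gene so picked is described in the text. The other genes named were chosen after their values were seen. Names and promoters came from RefSeq (TAIR10.1) by locus tag, which found 493 of 494 nuclear members. Copies of mitochondrial sequence and close copies were found with blastn 2.17.0 (identity of at least 95% over 100 bases for mitochondrial sequence, and at least 90% over at least 50% of the gene for close copies). Python 3.11.15 with pandas 2.3.3 was used, and the code was tested on simulated data.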

Additional observations from a re-analysis of the deposited data

How the results depend on the processing

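No paired analysis was possible because the tables used hold 1 value per group, and for the same reason leaving out a replicate was not run. Without any division by the shared column, 147 genes differed 2-fold. With 0.1 FPKM added, 14 genes were higher in OX and the mitochondrial median log2 ratio was -1.28. With 1 FPKM added, 78 differed, 76 lower and 2 higher, with medians of -1.45 for chloroplast and -0.78 for mitochondrial genes. Among genes with at least 5 FPKM in a column, 90 differed, 3 were higher and 4 lay on opposite sides. Centred on the nuclear median, 16 were higher, with medians of 0.00 for nuclear, -1.99 for chloroplast and -1.67 for mitochondrial genes. At q-values of at most 0.01 in both of the authors' deposited tables, 4 lay on opposite sides. A 1.5-fold limit gave 231 genes, 86 of them higher, and a 3-fold limit 81, of which 78 were lower and 3 higher. Nuclear genes alone gave 83, with 58 lower and 12 in the gene lists, where all genomes together gave 58 in the lists. Taking the RNAi value by its printed label, an alternative chosen after seeing the data, 366 genes differed, 356 lower and 10 higher, with 355 on opposite sides and 107 in the lists. Its medians were -2.37 for nuclear, -7.02 for chloroplast and -4.73 for mitochondrial genes. The sign of 8 named genes then turned: AT4G12500 was at -7.65, XTH12 at -4.91, EXT11 at -4.80, EXT13 at -4.27, CYP71A12 at -3.93, LRX1 at -3.57, FLA10 at -3.53 and GRXC7 at -3.47. This alternative exchanges the RNAi and shared values of the 344 genes below the shared column in both lines. Each of the 344 then lies on opposite sides and below 0 by construction. The 355 and the 8 turned signs follow from that exchange and are not a separate result. The cause of the other shifts was not tested. Of 55 named genes past 2-fold, 53 kept 2-fold in the same direction without division, 52 with 0.1 FPKM added, 39 with 1 FPKM added and 52 when centred.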

Other observations

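Nuclear members with an uncharacterised product and no other name, leaving out copies of mitochondrial sequence, numbered 37, and 12 of them were 2-fold or more lower in OX and 0 higher, beside 9.77% lower and 5.2% higher over the 481 nuclear genes. Besides those described above, AT2G31141 had 1.08 FPKM in OX, 3.62 FPKM in RNAi and 10.8 FPKM in the shared column, with a log2 ratio of OX over RNAi of -1.82. AT1G36622 had 0.561 FPKM in OX, 1.82 FPKM in RNAi and 5.89 FPKM in the shared column, at -1.77. AT4G08555 and AT3G21351 were at -1.30 and -1.22. Among 3 thioredoxin or glutaredoxin genes, AT5G01420 had 0.448 FPKM in OX, 0.211 FPKM in RNAi and 0.951 FPKM in the shared column, 2.03-fold higher in OX, and GRXC6 was at 0.49. Of 3 defensin-like genes, AT4G22235 stood close to equality at -0.12 while the other two were 2-fold lower in OX. These groups were formed from the products after the values were seen.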
